A study of Homo sapiens with 4 samples.

Results

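The genes of cholesterol and fatty acid synthesis were examined in HuCCT1 cells, an established line from human intrahepatic cholangiocarcinoma, a cancer of the bile ducts inside the liver. The set was a fixed list of 35 genes, chosen by their known place in lipid synthesis and not by their values. All 35 had a probe on the array and all 35 were measured well above background on every array, out of 13599 genes that met this condition. By role, 17 belonged to sterol synthesis, 4 to its control, 3 to sterol transport, 8 to fatty acid synthesis, and 3 to fatty acid activation and glycerolipid synthesis.

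The cells had been transfected at 30 nM, with Lipofectamine 2000, with 1 of 4 small RNAs. These were Pre-miR-376c, a mimic of the mature microRNA miR-376c-3p (miR-376c), a Pre-miR negative control (miControl), an siRNA against the adaptor gene GRB2 (siGRB2) and a non-silencing siRNA (siControl). After 24 h all 4 cultures were moved to RPMI 1640 with 0.1% serum and 5 ng/ml of epidermal growth factor (EGF), and RNA was taken 24 h later. Each condition was measured on 1 one-colour Agilent array, so every condition here is a transient transfection of 1 cell line without a replicate, no difference between conditions had a replicate check, and no test of conditions was made. All 4 cultures received EGF and little serum, and none was left untransfected.

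Cells make cholesterol from acetyl-CoA through the mevalonate pathway, in which HMGCS1 acts at the start and squalene and lanosterol are later intermediates. Fatty acids come from the same acetyl-CoA, which ACLY releases from citrate, ACACA carboxylates and FASN joins into chains. Most enzymes of both branches are switched on together by the SREBP transcription factors, encoded by SREBF1 and SREBF2, which SCAP escorts out of the endoplasmic reticulum when sterols are low and which INSIG1 holds back when sterols are plentiful. In liver and bile duct cells these factors set how much sterol and fat is made in place of being taken up from serum.

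The transfected microRNA and a few promoter stretches are printed because they carry the agent of the study and the letters that SREBP-driven promoters are known for. The mature miR-376c-3p lies at chr14:101039732-101039752 on the plus strand (RefSeq, GRCh38.p14), and capitals mark its seed, bases 2 to 8:
hsa-miR-376c-3p: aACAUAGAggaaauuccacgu

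The promoters shown are those of SCD, MVK, NSDHL, HMGCS1 and INSIG1, which were all highest on the siControl array, and of ACLY, which was above both controls with both treatments. Each comes from 1 promoter of the gene. Each runs upstream of the start from the first to the last match of 3 motifs, on either strand, with 5 flanking bases (RefSeq, GRCh38.p14). Capitals mark CCAAT or its complement ATTGG (the letters bound by NF-Y), CACCCCA (core letters of a sterol regulatory element) and CACGTG (an E-box). In NSDHL 2 CCAAT matches, 1 per strand, overlap.
SCD, chr10:100346999-100347056, plus strand: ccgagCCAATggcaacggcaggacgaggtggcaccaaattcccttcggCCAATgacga
MVK, chr12:109573579-109573757, plus strand: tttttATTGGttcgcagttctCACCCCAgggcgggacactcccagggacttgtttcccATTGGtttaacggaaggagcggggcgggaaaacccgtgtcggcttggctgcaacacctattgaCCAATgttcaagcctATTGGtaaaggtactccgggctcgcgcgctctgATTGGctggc
NSDHL, chrX:152830830-152830988, plus strand: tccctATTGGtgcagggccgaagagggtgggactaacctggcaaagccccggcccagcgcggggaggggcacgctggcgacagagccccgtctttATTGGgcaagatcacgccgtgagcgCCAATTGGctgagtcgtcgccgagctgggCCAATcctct
HMGCS1, chr5:43313503-43313572, minus strand: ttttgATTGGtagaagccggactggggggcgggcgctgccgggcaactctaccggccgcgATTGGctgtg
INSIG1, chr7:155297703-155297833, plus strand: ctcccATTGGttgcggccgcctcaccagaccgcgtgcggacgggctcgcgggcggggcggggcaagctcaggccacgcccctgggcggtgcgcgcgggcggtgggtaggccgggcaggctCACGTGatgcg
ACLY, chr17:41919036-41919092, minus strand: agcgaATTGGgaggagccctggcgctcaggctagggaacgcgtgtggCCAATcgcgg

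Promoters of 250 bases before to 50 after a start were at hand for 31 of the 35 genes, as 46 promoters, and ACAT2, FDFT1, SQLE and FASN had none in the table used. CCAAT was found on either strand in 26 of the 46 promoters (56.5%) and in 34.6% of all 35116 human promoters of the same length. GGGCGG, the letters bound by SP1, was found in 37 (80.4%), against 45.0% of all promoters. CACCCCA and CACGTG were each found in 7 of the 46 (15.2%), against 8.08% and 7.26% of all promoters. All promoters include those of genes not detected on these arrays, and shares among detected genes only were not computed. Of the stretches printed, MVK and NSDHL hold 5 matches of CCAAT each, SCD, HMGCS1 and ACLY 2 each and INSIG1 1. The only CACCCCA among them is in MVK and the only CACGTG in INSIG1. ACLY also held CACCCCA in a promoter, outside the stretch printed. A match of letters is a description of the sequence and not a measured binding site.

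Levels are log2 processed signals less each array's own 75th percentile of them, so that 0 stands for a probe at that percentile, and they were averaged over a gene's detected probes. The scanner software's own error put about 0.20 on a log2 difference between arrays for a gene with 1 spot, and this is the only error available per gene. For genes with more spots or probes it was made smaller as if these were independent. Spots of an array share 1 labelled RNA and are not replicates. A gene of bulk RNA can be low because fewer cells express it or because each cell holds less, which these arrays cannot tell apart. The 75th percentile signal was 1719 to 2689, the arrays detected 21824 to 24133 probes of 34127, no spot was saturated, and the 4 arrays shared 1 slide and 1 scan. The bile duct keratins KRT7 and KRT19 and the epithelial genes EPCAM and CDH1 were detected on all arrays, with KRT7 between 7.65 and 8.09, and SOX9 too. The hepatocyte genes ALB, TTR and APOA2 and the fibroblast genes COL3A1, DCN and PDGFRB were well above background on no array, while CYP3A4 was on 2, CD3E on 3, and COL1A1, PTPRC and CD14 on all 4.

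GRB2, the target of the siRNA, had a level of 0.62 on miControl, 0.07 on miR-376c, -0.10 on siControl and -0.65 on siGRB2. The siGRB2 array was the lowest, by 0.55 below siControl and 1.27 below miControl in log2 terms. The controls themselves differed by 0.72, and the miR-376c array lay below miControl but 0.17 above siControl. Because the controls differed by as much as the treatments for many genes, each treatment was set against both of them, and the comparisons of each treatment with 1 control share that control array.

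The lipid synthesis genes differed little as a set by their medians. None of the 35 was 1.5-fold or more away from both controls in the same direction with either treatment. Of all 13599 genes, 110 were so above and 216 below with miR-376c, and 171 above and 127 below with siGRB2. Passing this limit was therefore rare among all genes too. With miR-376c against miControl, the median log2 difference of the 35 genes was 0.13, beside -0.02 over all genes, and 26 of the 35 lay above the median of all genes. With siGRB2 against siControl it was 0.08 beside 0.11, and 16 lay above. Against the other negative control the median was 0.01 beside 0.06 for miR-376c and 0.25 beside 0.03 for siGRB2, where 28 of the 35 lay above. The set's distance from all genes was larger with miControl than with siControl as the reference, and it was 0.28 between the controls themselves, where siControl against miControl had a median of 0.20 beside -0.08.

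**Figure D1:**
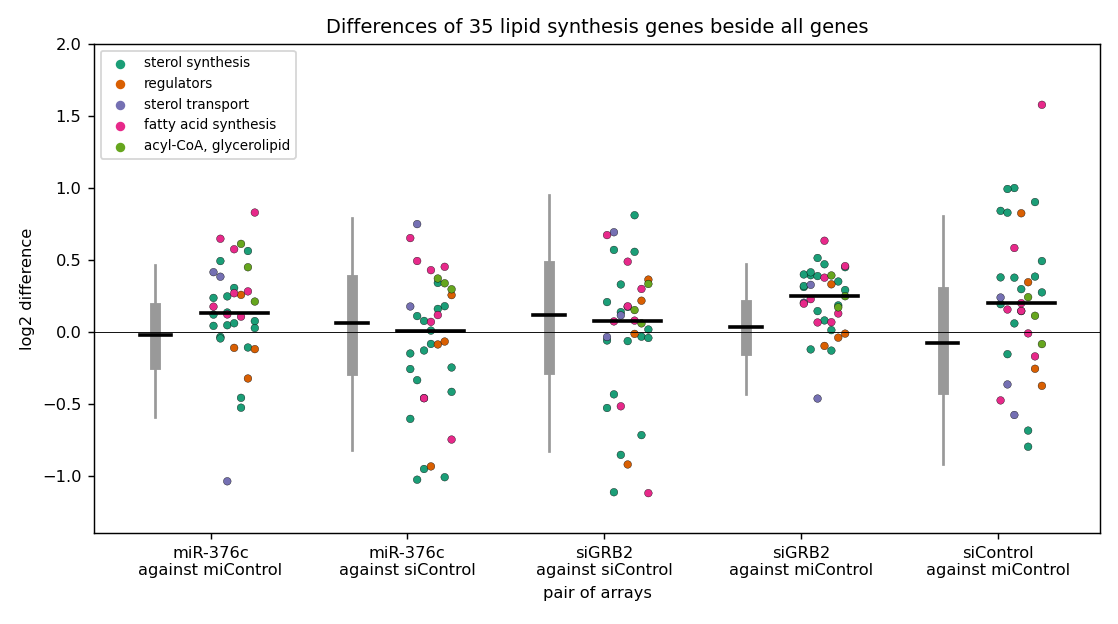
Log2 differences (vertical axis) of the 35 genes, coloured by role, for the 5 pairs of arrays (horizontal axis), with a black line at their median. Grey bars beside them span the 5th to 95th (thin) and 25th to 75th (thick) percentile of all 13599 genes with their median in black, and the medians of the 35 genes lie above those of all genes in the 3 pairs that hold miControl.

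Few of the genes passed a fold limit. In the comparison of miR-376c with miControl only ABCA1 was at least 2-fold apart, beside 1.14% of all genes either way, and 3 genes were at least 1.5-fold higher (SCD, ELOVL6 and ACSL1), beside 2.68%, and 1 lower, beside 5.13%. With miR-376c against siControl, SQLE and NSDHL were at least 2-fold lower, beside 4.57% of all genes either way, 2 genes were at least 1.5-fold higher (NPC1 and ELOVL5), beside 11.4%, and 6 lower (ACAT2, MVK, SQLE, NSDHL, INSIG1 and SCD), beside 10.7%. With siGRB2 against siControl, SCD and SQLE were at least 2-fold lower, beside 6.74% either way, 3 genes were at least 1.5-fold higher (MVD, NPC1 and ELOVL5), beside 17.6%, and 5 lower (MVK, SQLE, NSDHL, INSIG1 and SCD), beside 10.9%. With siGRB2 against miControl none of the 35 was 2-fold apart, beside 0.934%, ACLY was at least 1.5-fold higher, beside 2.71%, and none was lower, beside 2.39%. Between the controls, SCD was at least 2-fold higher on siControl than on miControl, beside 5.7% of all genes either way, 7 were at least 1.5-fold higher (SCD, SQLE, MVK, NSDHL, INSIG1, HMGCS1 and ACAT2), beside 10.4%, and MVD and TM7SF2 were lower, beside 14.6%.

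The miControl array was the lowest of the 4 for 21 of the 35 genes (60%), while it was the lowest for 19.2% of all genes. Among the sterol synthesis enzymes it was the lowest for 12 of 17, and among the fatty acid synthesis genes for 5 of 8. The siControl array was the lowest for 9 of the 35 (25.7%), beside 43.3% of all genes, and the highest for 12 (34.3%), beside 31.1%. The siGRB2 array was the highest for 11 (31.4%), beside 29.6% of all genes, and the lowest for 1, SQLE (2.86%), beside 16.6%. The miR-376c array was the highest for 8 (22.9%), beside 17.8%, and the lowest for 4 (11.4%), beside 20.9%. With 1 array per condition, a property of the miControl transfection and a property of that 1 culture or array cannot be told apart.

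**Figure D2:**
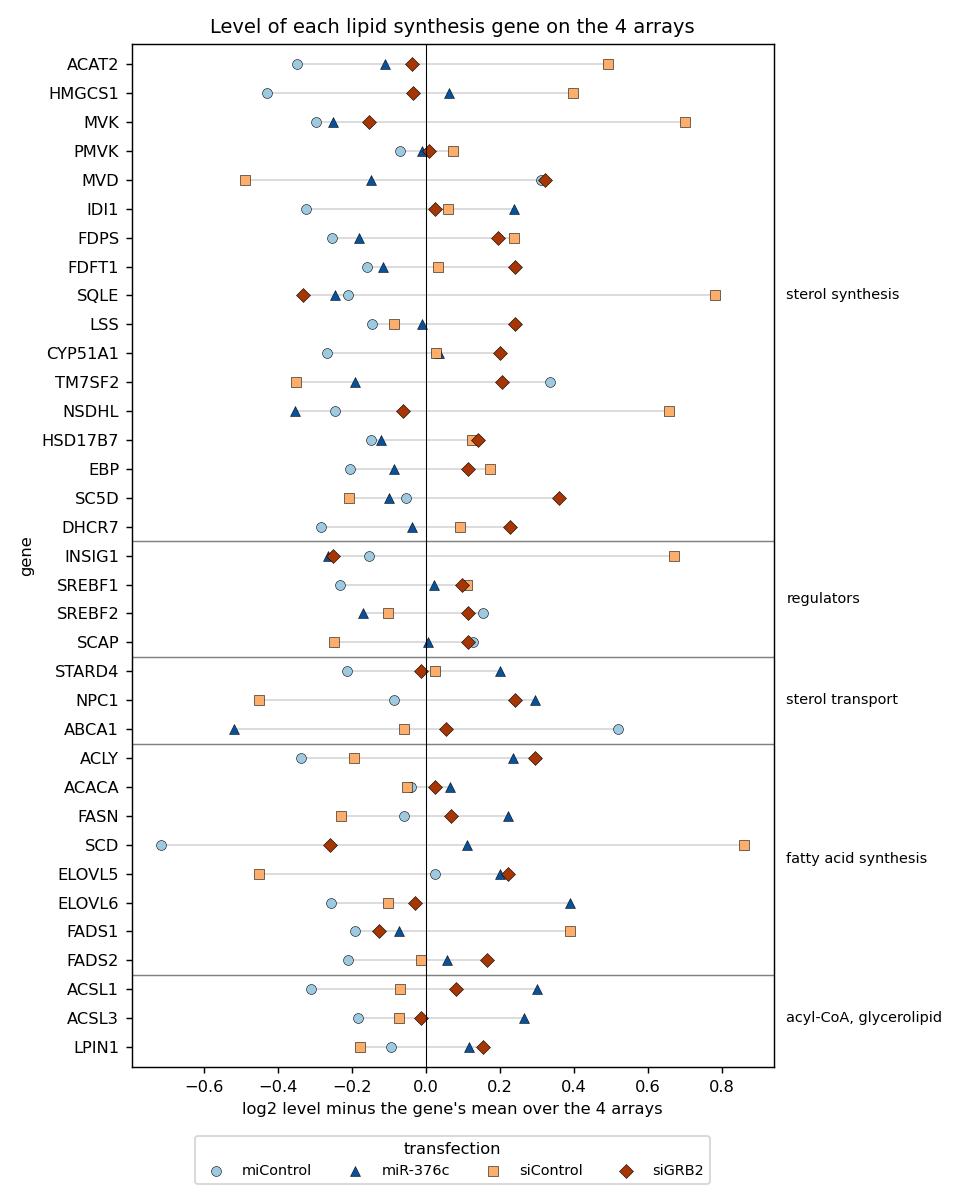
Log2 level of each of the 35 genes on the 4 arrays, less the gene's own mean over the arrays (horizontal axis), with genes grouped by role (vertical axis) and 1 symbol per array. The pale circles of miControl lie leftmost for 21 genes, and the squares of siControl stand far to the right for SCD, SQLE, MVK, NSDHL and INSIG1.

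The sterol synthesis enzymes had a median difference of 0.06 with miR-376c and 0.32 with siGRB2 against miControl, but -0.15 and -0.03 against siControl, and the siControl array itself lay 0.38 above miControl. Several enzymes from the start to the end of the pathway shared this high value on siControl. SQLE, squalene epoxidase and a rate-limiting step of the pathway, had levels of 3.83 on miControl, 3.79 on miR-376c, 4.82 on siControl and 3.71 on siGRB2. The siControl array stood apart and the other arrays lay within 0.12 of each other. SQLE was therefore 2.04-fold lower with miR-376c and 2.17-fold lower with siGRB2 against siControl (log2 differences of -1.03 and -1.11, error 0.20), but -0.04 and -0.12 against miControl.

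NSDHL, which removes methyl groups from the sterol ring, had levels of 4.69, 4.58, 5.59 and 4.87 on miControl, miR-376c, siControl and siGRB2. Here too siControl was the highest, and the log2 differences of -1.01 with miR-376c and -0.72 with siGRB2 against siControl became -0.11 and 0.18 against miControl. MVK, mevalonate kinase, had levels of 3.34, 3.38, 4.34 and 3.48 on the same arrays in that order. Its difference between the controls fell just under the 2-fold limit. HMGCS1, the synthase at the head of the mevalonate pathway, was at 1.67, 2.16, 2.49 and 2.06, and ACAT2, the cytosolic thiolase before it, at 3.02, 3.25, 3.86 and 3.33. For both, either treatment lay between the controls.

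MVD and TM7SF2 went the other way between the controls. MVD, the decarboxylase that ends the mevalonate steps, had levels of -0.78 on miControl, -1.23 on miR-376c, -1.57 on siControl and -0.76 on siGRB2. It was 1.75-fold higher with siGRB2 against siControl (log2 difference 0.81) and 0.01 apart from miControl. TM7SF2, a sterol reductase, was at -0.71, -1.23, -1.39 and -0.84, with a log2 difference of 0.56 with siGRB2 against siControl, and both treatments lay between the controls. The brightest probes of the set were those of EBP, FDPS and DHCR7, which gives no order of abundance between genes. EBP, the sterol isomerase, had levels of 5.76, 5.88, 6.14 and 6.08, and FDPS, farnesyl diphosphate synthase, 5.24, 5.31, 5.73 and 5.69. Both were lowest on miControl and highest on siControl. DHCR7, a reductase at the end of the pathway, had levels of 4.87, 5.12, 5.25 and 5.38, with siGRB2 highest.

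Of the 17 sterol enzymes, 12 were within 0.3 of miControl with miR-376c, beside 68.8% of all genes, and 7 with siGRB2, beside 76.8%. IDI1, the isomerase that readies isoprene units, was at 1.92, 2.48, 2.30 and 2.27, and was the only one of them above both controls with miR-376c by more than 0.1 (log2 differences of 0.56 and 0.18). SC5D, a late desaturase, was at -3.19, -3.23, -3.34 and -2.77, and lay above both controls with siGRB2 by 0.41 and 0.57. FDFT1, CYP51A1 and DHCR7 also lay above both controls with siGRB2, by 0.14 to 0.21 against the nearer one. PMVK and HSD17B7 differed by at most 0.29 in any of the 4 comparisons.

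**Figure D3:**
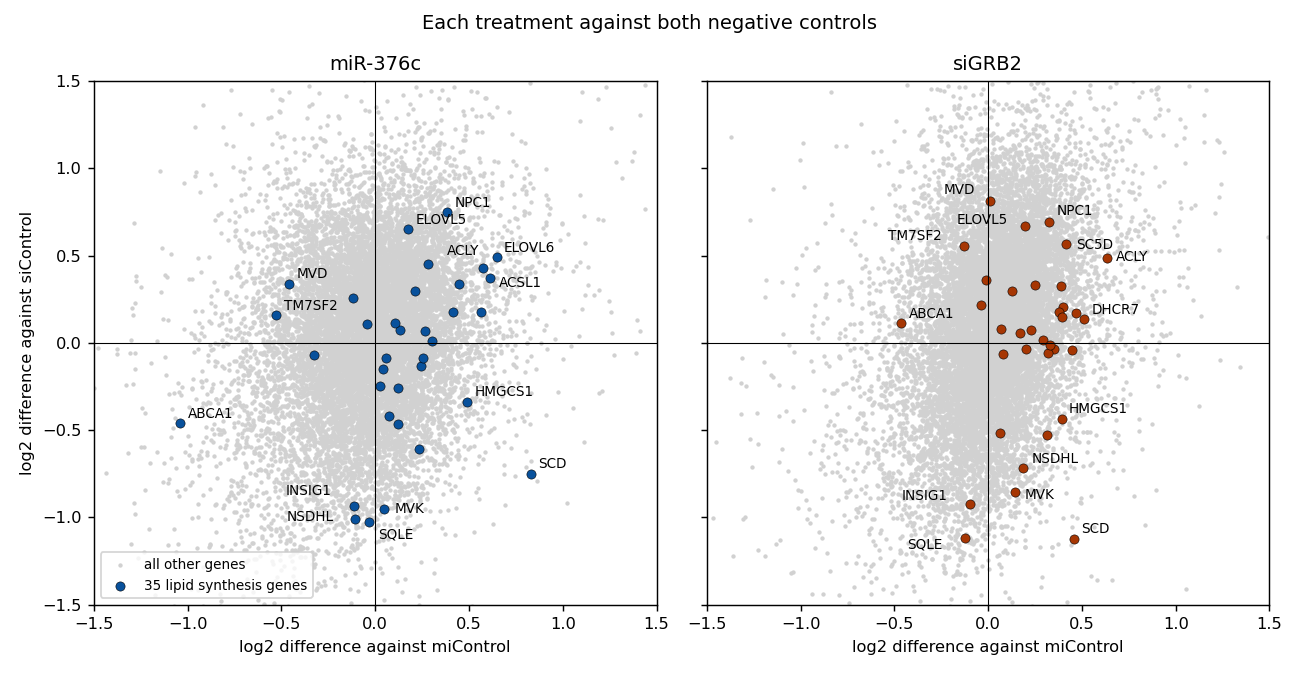
Log2 difference of each gene from miControl (horizontal axis) and from siControl (vertical axis) with miR-376c (left panel) and siGRB2 (right panel), the 35 genes as coloured points over all other genes in grey, some of which lie outside the axes. Points in the upper right quadrant are above both controls, where ACLY and NPC1 lie with both treatments, and SQLE, MVK, NSDHL, INSIG1 and SCD are low against siControl only.

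Of the 4 regulators, INSIG1 was the one whose gene value differed by more than 1.5-fold, and again on the siControl array. INSIG1, which retains SCAP in the endoplasmic reticulum and is itself an SREBP target, had levels of 3.27 on miControl, 3.16 on miR-376c, 4.09 on siControl and 3.17 on siGRB2. Its log2 differences from siControl were -0.94 with miR-376c and -0.92 with siGRB2, beside -0.11 and -0.10 from miControl, which are within the error of 0.20. SREBF2, the factor that acts mainly on sterol genes, was at 0.79, 0.47, 0.53 and 0.75, a range of 0.32. SCAP was at 0.78, 0.66, 0.40 and 0.76, with siControl the lowest. Neither was at its highest on the siControl array, where INSIG1 and SQLE were.

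SREBF1, the factor that acts mainly on fatty acid genes, was read by a pair of probes that disagreed. The brighter had levels of 3.35 on miControl, 3.42 on miR-376c, 4.23 on siControl and 3.55 on siGRB2, and the dimmer -2.62, -2.17, -2.81 and -2.15. The siControl array was therefore 0.88 above miControl by the first probe and 0.19 below it by the second (log2 difference -0.19). With siGRB2 against siControl the probes gave -0.68 and 0.65, so their mean of -0.01 describes neither. ACACA, acetyl-CoA carboxylase, behaved alike, with levels of 3.01, 3.27, 3.79 and 3.08 by the brighter probe and -0.81, -0.85, -1.60 and -0.74 by the dimmer. Between the controls its probes gave 0.77 and -0.80, and with siGRB2 against siControl -0.71 and 0.86. Against miControl, by contrast, the ACACA probes gave 0.07 each with siGRB2.

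**Figure D4:**
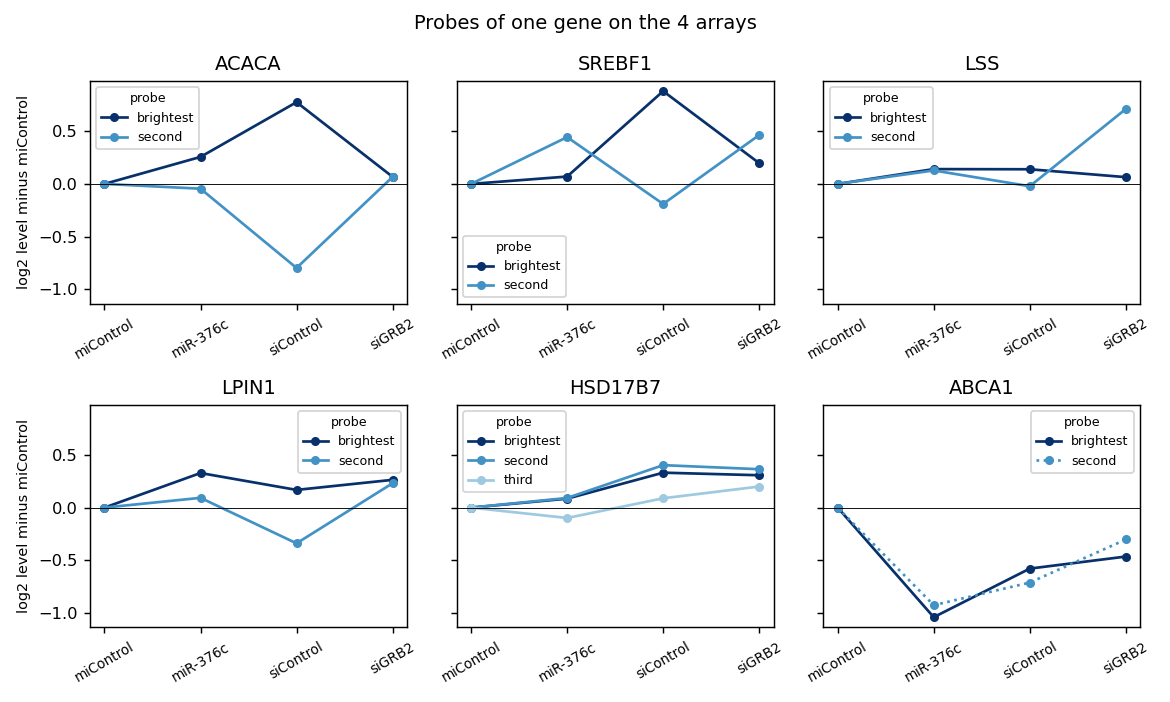
Log2 level of each probe less its own level on miControl (vertical axis) over the 4 arrays (horizontal axis) for the genes with more than 1 probe at different signals, darker lines for brighter probes and a dotted line for a probe not well above background on all 4 arrays. The probes of ACACA and of SREBF1 part on siControl, where the brighter is up and the dimmer down.

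The controls differed with signal level over all genes as well. The median of siControl against miControl was -0.26 for genes with a mean level under -4 and rose over the bins to 0.12 for levels from 2 to 4 and to 0.21 above 4. Of the lipid synthesis genes, 13 had a level of 2 or more, and their medians in these last bins were 0.82 and 0.43. SQLE, MVK, NSDHL, INSIG1, HMGCS1 and ACAT2 were among these 13, while MVD and TM7SF2, which were low on siControl, had levels under 0 on every array. The part of the signal level in the sterol genes' values was not tested. The set's distance from all genes between the controls, 0.28, was 0.13 with quantile normalization, 0.15 with normexp background correction and 0.18 with no filter on dim probes.

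**Figure D5:**
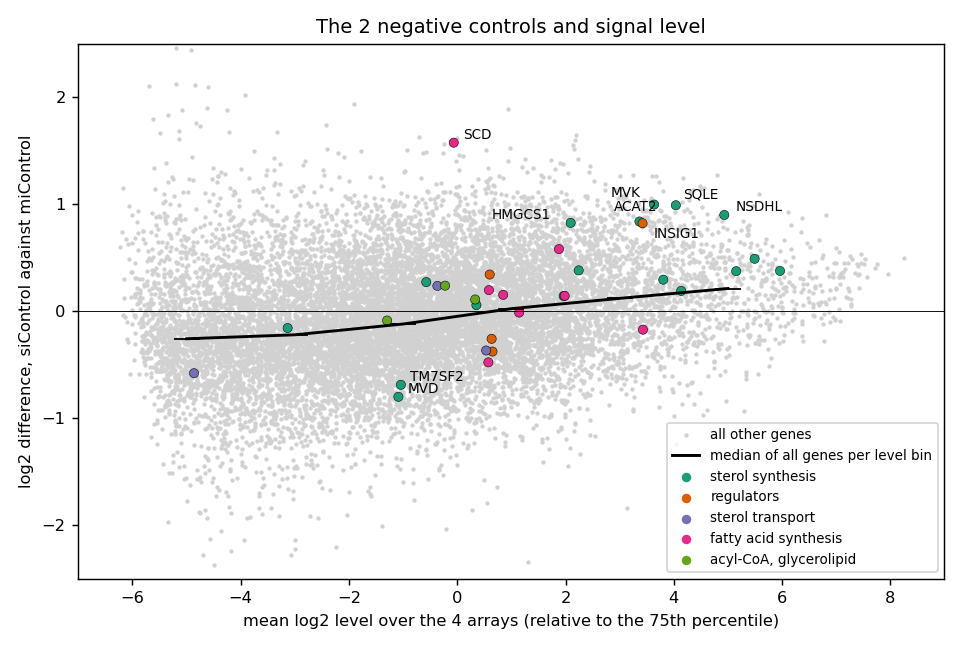
Log2 difference of siControl from miControl (vertical axis) against the mean log2 level of a gene over the 4 arrays (horizontal axis), with the 35 genes coloured by role, all other genes in grey and the median of all genes per level bin as a black line. The line climbs from -0.26 to 0.21, and SQLE, MVK, NSDHL, HMGCS1, ACAT2, INSIG1 and SCD lie above it.

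All 8 fatty acid synthesis genes lay above miControl with both treatments, beside 46.9% of all genes with miR-376c and 55.8% with siGRB2. Their median log2 differences were 0.27 for miR-376c and 0.21 for siGRB2. ACACA is counted by the mean of its probes, which gave -0.05 and 0.26 with miR-376c against miControl. The differences from miControl share that array. Against siControl 6 of 8 were higher with each treatment, beside 55.2% of all genes with miR-376c and 58.6% with siGRB2. Of the 8, 4 lay above the median of all genes with siGRB2 against siControl (median 0.13 beside 0.11), and ACACA is counted by the mean of probes that disagreed there. ACLY, the ATP citrate lyase that supplies cytosolic acetyl-CoA, had levels of 1.65 on miControl, 2.22 on miR-376c, 1.79 on siControl and 2.28 on siGRB2. Both treatment arrays lay above both control arrays, by 0.57 and 0.43 with miR-376c and by 0.63 and 0.49 with siGRB2 in log2 terms, each over 2 errors of 0.20. ACLY stayed above both controls under each of the 10 other ways of processing the arrays. It had 1 probe with 1 spot, so the ways that change the choice of spots or probes returned the same values. Against miControl 2.85% of all genes were as high with miR-376c and 2.23% with siGRB2. Against siControl its differences were more common, with 19.7% of all genes as high with miR-376c and 23.2% with siGRB2.

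FASN, the fatty acid synthase, was at 3.37, 3.65, 3.20 and 3.50 on miControl, miR-376c, siControl and siGRB2. Its differences were small, at 0.28 and 0.45 with miR-376c and 0.13 and 0.30 with siGRB2, though it lay above both controls in each case. ELOVL6, which extends palmitate, was at 0.59, 1.24, 0.75 and 0.82 and was above both controls by 0.65 and 0.49 with miR-376c. With siGRB2 its differences were 0.23 and 0.07, close to the error. ELOVL5, the elongase of polyunsaturated chains, was at 0.60, 0.78, 0.12 and 0.80, so that its 1.59-fold higher value with siGRB2 against siControl came with a low siControl array and a difference of 0.20 from miControl. The desaturases of polyunsaturated chains were FADS1, at 1.69, 1.81, 2.27 and 1.75 with siControl highest, and FADS2, at 0.37, 0.64, 0.57 and 0.75 with siGRB2 highest.

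SCD, the stearoyl-CoA desaturase that makes monounsaturated fatty acids, varied the most of the 35. Its levels were -0.78 on miControl, 0.05 on miR-376c, 0.80 on siControl and -0.32 on siGRB2, so that both treatments lay between the controls. The controls were 2.98-fold apart (log2 difference 1.58), and 0.235% of all genes were that high on siControl against miControl. Against its own control SCD was 1.78-fold higher with miR-376c and 2.18-fold lower with siGRB2 (log2 differences of 0.83 and -1.12, error 0.20). Against the other control these became -0.75 with miR-376c and 0.46 with siGRB2.

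Of the transport genes, NPC1 and ABCA1 went apart. NPC1, which exports cholesterol from lysosomes, was read over 10 spots. The error of 0.06 on its differences takes these spots as independent, though on each array they share 1 labelled RNA. Its levels were 0.45 on miControl, 0.83 on miR-376c, 0.08 on siControl and 0.77 on siGRB2. It was above both controls with both treatments, by 0.38 and 0.75 with miR-376c and by 0.33 and 0.69 with siGRB2. STARD4, a carrier of cholesterol in the cytosol, was at -0.58, -0.17, -0.34 and -0.38.

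ABCA1, which pumps cholesterol out of the cell and is raised by the sterol-sensing LXR receptors, was lower with miR-376c. Its levels were -4.34 on miControl, -5.38 on miR-376c, -4.92 on siControl and -4.81 on siGRB2. The miR-376c array was 2.05-fold below miControl (log2 difference -1.04, error 0.26), where 0.654% of all genes were as low. It was 0.46 below siControl, where 15.2% of all genes were as low. These signals were dim, at 132, 49.5, 56.7 and 71.3 in the scanner's units, with 21.2 to 24.4 as the lowest signals called well above background on an array. A dimmer probe of ABCA1, above background on 2 arrays and left out for that, gave -0.92 for the same comparison. With that probe included the log2 difference was -0.98, under the 2-fold limit, and with normexp background correction it was -0.47.

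The 3 listed enzymes that activate fatty acids or pass them to glycerolipids were higher with miR-376c than on both controls, beside 29.3% of all genes. Other enzymes of these kinds, outside the list, did not share this. With miR-376c, ACSL5, LPIN2, LPIN3, GPAM, AGPAT2 and DGAT1 lay below both controls, DGAT2 between them and ACSL4 above both. ACSL1, an acyl-CoA synthetase read over 10 spots, was at -0.54, 0.08, -0.30 and -0.14 on miControl, miR-376c, siControl and siGRB2. Its log2 differences were 0.61 and 0.37 with miR-376c (error 0.06 if the spots were independent). ACSL3, another synthetase, was at 0.15, 0.60, 0.26 and 0.32. LPIN1, the phosphatidate phosphatase lipin, differed from either control by 0.21 to 0.33 with either treatment, with the treatments higher each time.

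Counted over the set, miR-376c lay above both controls for 14 of the 35 genes and below both for 5, beside 29.3% and 27.2% of all genes. The siGRB2 array lay above both for 17 and below both for 2 (SQLE and INSIG1, by 0.12 and 0.10 against the nearer control), beside 38.3% and 23.9%. By at least 0.3 against each control, 5 genes were higher with miR-376c (NPC1, ACLY, ELOVL6, ACSL1 and ACSL3), or 14.3%, beside 5.68% of all genes, and 1 was lower (ABCA1), or 2.86%, beside 6.40%. With siGRB2, 4 genes were higher by that measure (LSS, SC5D, NPC1 and ACLY), or 11.4%, beside 7.83% of all genes, and none was lower, beside 4.48%. LSS, lanosterol synthase, rested on a pair of probes that gave 0.06 and 0.71 with siGRB2 against miControl and -0.07 and 0.73 against siControl. The sets for the treatments rest on the same control arrays, so a gene shared by both, such as ACLY, is not a repeat of one finding in independent cultures.

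Of 45 other genes of the pathway that were not among the 35, 41 were detected on all arrays, and their medians were -0.05 and -0.06 with miR-376c against miControl and siControl and 0.02 and 0.10 with siGRB2. At least 1.5-fold higher were 2 and 7 of them with miR-376c and 2 and 9 with siGRB2, and lower were 1 and 3, and 0 and 6, in that order of the controls. Of all genes, 2.68% and 11.4% were higher with miR-376c and 2.71% and 17.6% with siGRB2. Lower were 5.13% and 10.7% of all genes with miR-376c and 2.39% and 10.9% with siGRB2, in the same order. ACSS2, which makes cytosolic acetyl-CoA from acetate, was the only one of the 41 at least 1.5-fold above both controls with siGRB2, at 0.16, 0.30, -0.08 and 0.94 on miControl, miR-376c, siControl and siGRB2 (log2 differences of 0.78 and 1.02). ME1, a malic enzyme that supplies NADPH, was the only one so with miR-376c, at -2.65, -1.90, -2.61 and -2.49 (0.75 and 0.71). Of all 13599 genes, 171 were at least 1.5-fold above both controls with siGRB2 and 110 with miR-376c. ACSS2 and ME1 were singled out after their values were seen.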

How the data were processed

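Total RNA (200 ng per sample) was labelled with Cy3 and hybridized to Agilent Human GE 4x44 K v2 arrays, and the authors deposited, for each of the 4 arrays, the spot intensity values of Feature Extraction (10.7.3.1 per the file headers), processed by that software. A matrix of log2 signals, 1 per probe and array, that the authors had normalized to the 75th percentile in GeneSpring GX, was deposited too. Its entries equalled the averaged log2 processed signals less 1 fixed value for each array, within 0.01 for 99.46% to 99.54% of the probes, with column medians of -3.39 (miControl), -3.44 (miR-376c), -3.59 (siControl) and -3.36 (siGRB2). It served as an alternative, and 0 of its columns were unmatched.

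In Python (3.11.15; pandas 2.3.3, numpy 2.4.6), log2 processed signals were shifted to each array's 75th percentile over non-control spots. Spots with an outlier flag (289 to 329 per array) were left out, spots of a probe were averaged, and probes well above background on all 4 arrays were averaged per gene. Probes were named from their accessions through RefSeq, which named 25419 of the 34127 (74.5%), and the remaining probes were left out. The lipid synthesis genes held 42 probes, of which 41 were detected on all arrays. Differences were taken between single arrays, with fold limits of 2 and 1.5. The number of arrays, 1 per condition, limits the precision, and it is not given in the sources used here whether cultures were repeated. Spots of 1 probe differed with an SD of 0.049 to 0.054 (log2) within an array. Background correction (normexp) and quantile normalization were run as alternatives with R (4.3.3) and limma (3.58.1), where 7 spots of the siGRB2 array were left out before normexp. The calculation was tested on simulated data. Promoter and microRNA sequences came from RefSeq (GRCh38.p14).

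Values on all arrays were to be given for genes 2-fold apart in any comparison or 1.5-fold from both controls, the 3 brightest, the named regulators and rate-limiting steps, and genes whose probes disagreed. Other genes were described after their values were seen. The genes and lists were chosen with earlier results of these data known.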

Additional observations from a re-analysis of the deposited data

Results flagged for a closer look

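SCD moved in opposite directions with the 2 treatments, each against its own negative control: the log2 difference was 0.83 with miR-376c against miControl and -1.12 with siGRB2 against siControl. The difference between these was not tested, since each condition had 1 array. The controls themselves lay 1.58 apart for SCD, and both treatment arrays lay between them.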

How the results depend on the processing

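No paired analysis was possible because the conditions share only the number 1. The count of genes at least 2-fold apart was 1 for miR-376c against miControl and became 0 with quantile normalization, with normexp background correction, with probes detected on at least 1 array and with no filter on dim probes, and 4 with a 1.5-fold limit. For miR-376c against siControl the count of 2 became 0 with quantile normalization and with the percentile taken over detected probes, 4 with a shift to the array median and 8 with a 1.5-fold limit. For siGRB2 against siControl the count of 2 became 1 with quantile normalization and 8 with a 1.5-fold limit, and for siGRB2 against miControl the count of 0 became 1 with a 1.5-fold limit. The median of the 35 genes with miR-376c against siControl went from 0.01 to -0.074 with the median shift. With siGRB2 against siControl it went from 0.08 to -0.053 with the median shift, to -0.0010 with the deposited log2 table and to 0.16 against the mean of the 2 negative controls. The median shift also moved the median of all genes, from 0.11 to -0.02 for siGRB2 against siControl and from -0.08 to 0.04 for siControl against miControl, and left the set's distance from all genes as it was. The causes of the other changes were not tested. That distance was 0.11 to 0.17 for miR-376c against miControl and 0.16 to 0.21 for siGRB2 against miControl over the 10 alternatives, and 0.13 to 0.31 for siControl against miControl. Against siControl it took either sign, from -0.10 to 0.04 with miR-376c and from -0.07 to 0.10 with siGRB2, where the highest value came with quantile normalization. Of 1400 recomputed differences of single genes, 1369 moved by less than the scanner error, 31 by more, and 0 of those at least 2-fold apart changed sign. Most of the genes had 1 probe, so alternatives that change the choice of probes could not move many of these differences. All 140 differences stayed within the error with flagged spots kept and with the median over probes. The same held with probes detected on at least 1 array and with no filter on dim probes. Dim signals such as those of ABCA1, close to background, limit the smallest difference that can be read.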
